A study of Solanum lycopersicum with 32 samples.

Results

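RNA polymerase II (RNAPII) occupancy in tomato leaves after 6 h of heat was set against that of unheated leaves. The 4 libraries were chosen by their labels, RNAPII at 6 h and RNAPII at 0 h with 2 libraries each, out of 32 samples, of which 30 have a peak list used here. On the 12 chromosomes and at a q-value of at most 0.05, they held 69684 and 69178 peaks at 6 h, against 67224 and 67542 peaks at 0 h, which is 273628 of the 2267775 peaks in all lists. The plants were wild type (WT) of cv. M82, 4 weeks old and grown at 24 °C with 16 h of light. The 6 h plants were kept at 45 °C for 6 h and the 0 h plants were not heated. Chromatin immunoprecipitation and sequencing (ChIP-seq) was done on the fourth leaf, with leaves of several plants pooled in a replicate. All lists rest on a single input library, labelled 0 h, and no leaf was collected after 6 h without heat, so heat and the time of day cannot be told apart. In whole leaves, fewer cells with RNAPII at a site and less RNAPII per cell cannot be told apart either.

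RNAPII transcribes the protein-coding genes, and its ChIP-seq signal runs from the promoter through the gene body and past the end of the gene, so that an occupied long gene gives a wide peak. In plants, heat shock factors switch on chaperone genes within minutes, while transcription of many other genes is reduced. H3K4me3, the trimethylation of lysine 4 of histone H3, marks the starts of active genes, and H3K9ac, H3K18ac and H3K27ac are acetylations of the same histone found at active promoters and at some regulatory elements away from genes. The peak lists carry positions and no gene names, and no annotation of the M82 assembly was used here, so regions are named by chromosome and position in that assembly.

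At their summits, the labelled replicates differed by less than Poisson counts would. The fragments over each summit were worked out from the fold and the p-value of its peak, and a chi-square per matched summit was averaged. It was 0.702 for the 6 h libraries and 0.659 for the 0 h libraries, against 3.34 to 3.52 for the 4 pairs of a 6 h and a 0 h library. Being a maximum, a summit varies less than a Poisson count. Both libraries of a time were therefore counted as 1 sample, their values are given side by side, and no SD or p-value is given. Taken as 2 samples against 2, the smallest two-sided exact permutation p would be 0.333.

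The 6 h libraries were also shallower. The lowest background of a library, used as its depth, was 6.94 and 5.61 fragments over a base at 6 h, against 9.53 and 7.98 at 0 h, a ratio of 0.716 between the geometric means. This bears on every width and on every lost peak below, since a shallower library reaches the cutoff over fewer bases.

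RNAPII peaks covered less of the genome in both 6 h libraries than in either 0 h library, and the 6 h libraries were the shallower ones. Merged peaks covered 64.3 and 61.4 Mb at 6 h, against 69.7 and 67.0 Mb at 0 h, a log2 change of -0.12. The median peak was 541 and 528 bp wide at 6 h, against 576 and 558 bp at 0 h, a log2 change of -0.085. Peaks of at least 2 kb numbered 6316 and 5794 at 6 h, against 7406 and 6879 at 0 h. The number of all peaks went the other way, with a log2 change of 0.043. Between the libraries of a time, covered length changed by 0.217 (6 h) and 0.219 (0 h) per doubling of depth on the log2 scale. When this slope was taken off, a choice made after seeing the data, a log2 change of -0.017 was left for covered length and -0.014 for median width. Each slope rests on 2 libraries, and the part of depth in the change was not tested beyond this. The 1 h libraries, which share the 0 h libraries as their control, covered 88.6 and 87.7 Mb at a depth of 7.33 and 7.05 fragments.

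**Figure D1:**
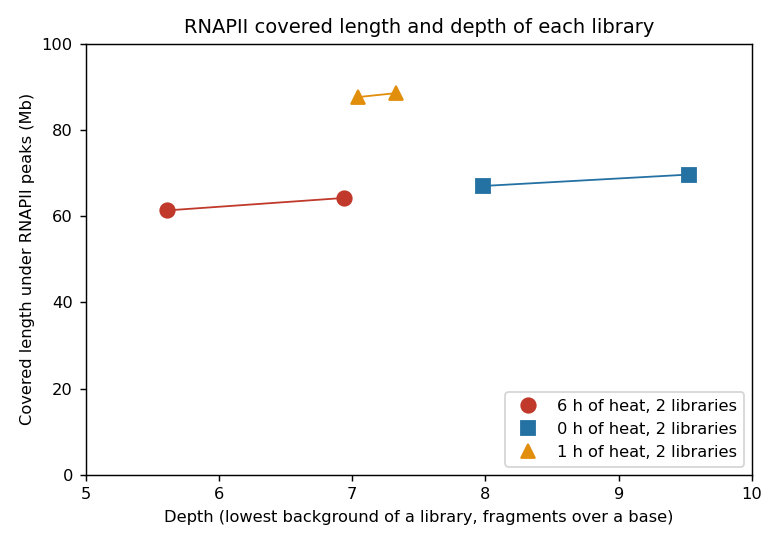
Covered length under RNAPII peaks in Mb (vertical axis) against the depth of each library in fragments over a base (horizontal axis); each point is a library and a line joins the libraries of a time. The 6 h points at 64.3 and 61.4 Mb and the 0 h points at 69.7 and 67.0 Mb lie along a common rise with depth, and the 1 h points at 88.6 and 87.7 Mb lie above it.

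The peaks of the 4 lists merged into 75863 regions, of which 42250 had a peak in all 4 lists and are called shared. A shared region narrowed where its covered length in both 6 h libraries was below that in both 0 h libraries, and widened in the reverse case. By this rule 15424 shared regions narrowed (36.5%) and 8701 widened (20.6%). When each library's covered lengths were first divided by their median over the shared regions, an alternative added after seeing the data, 11134 narrowed and 12912 widened, so the excess of narrowed regions turned into an excess of widened ones. Without 6 h replicate 2 the widened regions numbered 14410, and without 0 h replicate 1 they numbered 14750, since fewer libraries then had to agree.

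To set these changes beside the spread between libraries, neighbours in depth were compared. From 0 h replicate 2 to 6 h replicate 1, a step of depth of 0.87, the log2 change in covered length had an SD of 0.587 over the shared regions. The same SD was 0.391 between the 6 h libraries and 0.364 between the 0 h libraries, for steps of depth of 0.809 and 0.837. The median change was alike in the 3 steps, at -0.037, -0.044 and -0.04. In the step across time, 2060 regions (4.88%) shrank to 50% or less of their length and 1620 (3.83%) grew to at least 2 times their length. Between the 6 h libraries 799 regions shrank and 417 grew by as much, and between the 0 h libraries 692 shrank and 312 grew.

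**Figure D2:**
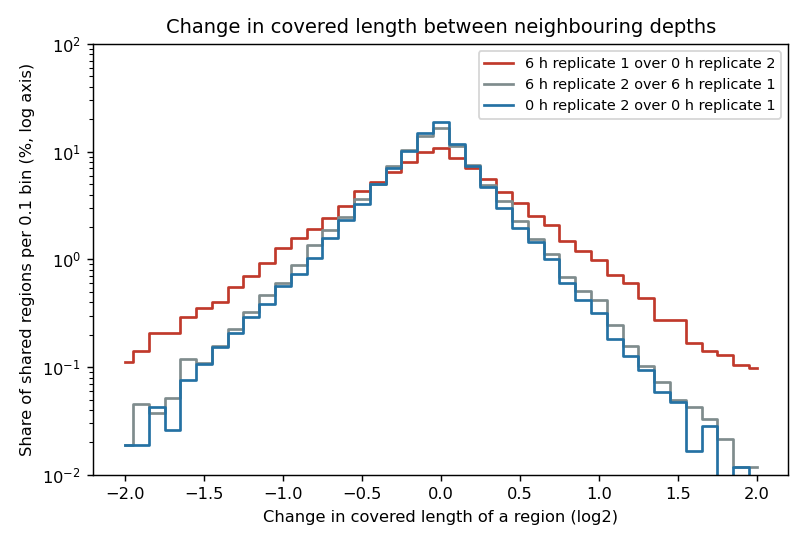
Share of the 42250 shared regions in percent on a log axis (vertical) by the log2 change in covered length (horizontal, bins of 0.1) for 3 pairs of libraries that follow each other in depth. The pair of a 6 h and a 0 h library spreads wider on both sides (SD 0.587) than the pairs of 1 time (SD 0.391 and 0.364).

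Narrowing was most frequent among the longest regions. Of the 2760 shared regions over 5000 bp, 55.9% narrowed and 21.2% widened. Of the 4279 regions of up to 500 bp, 26.5% narrowed and 19.3% widened. The median log2 change in covered length stayed between -0.097 and -0.038 in all 5 bands of length. Large changes in bp were also mostly reductions, with 577 regions that narrowed by at least 2000 bp and 174 that widened by as much.

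More shared regions gained than lost peaks in number at 6 h. The 6 h libraries were the shallower ones, and the part of depth in these counts was not tested. At 6 h, 2658 shared regions (6.29%) had more peaks in both libraries than in either 0 h library, and 929 (2.2%) had fewer. Of the regions with more peaks, 78.7% had narrowed and 1794 held a single peak in both 0 h libraries. Of the regions with fewer peaks, 57.8% had widened and 698 held a single peak in both 6 h libraries. Regions with more peaks had a median length of 3722 bp, against 1037 bp for all shared regions. Regions with more peaks numbered 4695 without 6 h replicate 1, 4225 without 6 h replicate 2 and 4148 without 0 h replicate 2. Regions with fewer peaks numbered between 1398 (without 6 h replicate 1) and 2064 (without 0 h replicate 1) when any library was left out, with 1662 without 6 h replicate 2 and 1693 without 0 h replicate 2.

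The 6 regions that narrowed by most bp lay on 6 chromosomes, and in 4 of them less than 50% of the length covered at 0 h was still covered at 6 h in both libraries, the exceptions being those on chromosomes 2 and 8. On chromosome 7, at 68269565 to 68284524, the covered length was 3886 and 3241 bp at 6 h, against 14736 and 14629 bp at 0 h. The summit there was 14.6 and 11.6 times the background at 6 h, against 18.4 and 18.7 times at 0 h. On chromosome 9, at 61657602 to 61672424, RNAPII covered 3107 and 3277 bp at 6 h, against 13816 and 13637 bp at 0 h. On chromosome 3, at 32274790 to 32290602, it covered 3947 and 3987 bp at 6 h, against 14215 and 14570 bp at 0 h. That region had no H3K4me3 peak in any 6 h or 0 h list and held H3K18ac over 1935 and 2114 bp at 6 h, against 1874 and 1755 bp at 0 h.

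On chromosome 12, at 65618834 to 65632302, a single RNAPII peak in each 0 h library stood against 7 peaks in each 6 h library. Covered length was 3535 and 4075 bp at 6 h, against 13441 and 13203 bp at 0 h. H3K9ac in the same region covered 2242 and 3218 bp at 6 h, against 9946 and 9664 bp at 0 h, while H3K27ac covered 5518 and 4386 bp at 6 h, against 3256 and 3381 bp at 0 h. The region of the largest change, on chromosome 8 at 63841284 to 63866013, was covered over 11722 and 13265 bp at 6 h, against 24462 and 24269 bp at 0 h, and was split into 9 and 11 peaks at 6 h, against 3 and 3 at 0 h. On chromosome 2, at 46906234 to 46945980, 29879 and 29364 bp were covered at 6 h, against 39480 and 39060 bp at 0 h, with a summit of 36.6 and 43.8 times the background at 6 h, against 30.2 and 33.8 at 0 h.

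Among the 6 regions that widened by most bp, the number of RNAPII peaks was at most 5 at 6 h and the covered length was larger in both libraries. On chromosome 9, at 7539226 to 7551445, covered length was 11675 and 11922 bp at 6 h, against 1599 and 1890 bp at 0 h. The summit was 40.6 and 43.1 times the background at 6 h, against 7.45 and 8.15 times at 0 h. H3K4me3 there covered 9918 and 9856 bp at 6 h, against 3812 and 4055 bp at 0 h, and H3K9ac covered 5199 and 4207 bp at 6 h, against 1312 and 1252 bp at 0 h.

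The widest gain, on chromosome 1 at 77950890 to 77973291, had no peak of any of the 4 marks in the 6 h or 0 h lists. RNAPII covered 22186 and 21719 bp of it at 6 h, in 2 and 4 peaks, against 10650 and 9358 bp at 0 h, in 17 peaks in each library, and 1435 and 1778 bp at 1 h. On chromosome 3, at 46355157 to 46374567, 19092 and 18891 bp were covered at 6 h, against 9764 and 10279 bp at 0 h. H3K4me3 at that place covered 6589 and 7603 bp at 6 h, against 2099 and 2375 bp at 0 h. The other 3 were on chromosome 3 at 60580375 to 60595441, chromosome 7 at 216028 to 230166 and chromosome 1 at 85586226 to 85601943. They gained a mean of 9789, 7645 and 7611 bp.

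**Figure D3:**
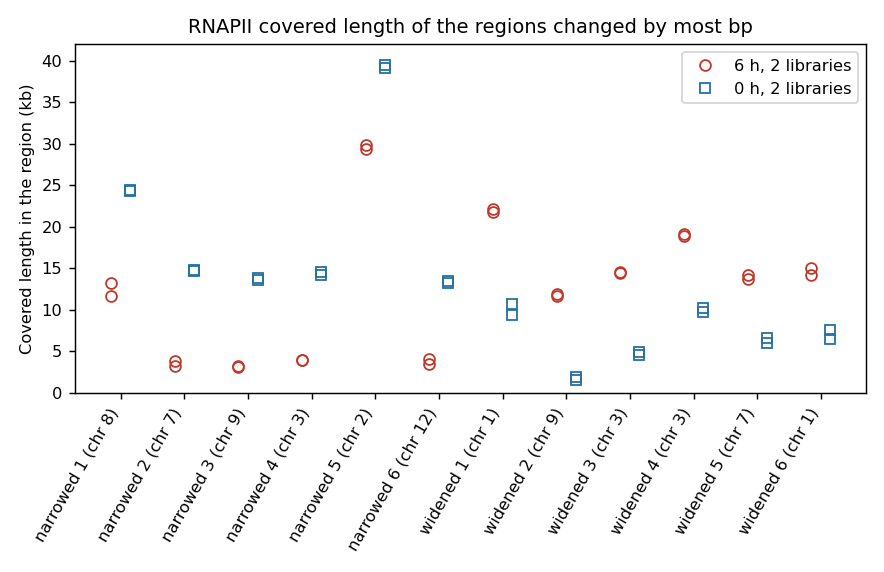
Covered length in kb (vertical axis) of the 6 regions that narrowed and the 6 that widened by most bp (horizontal axis, with their chromosome), in each of the 6 h libraries (circles) and 0 h libraries (squares). Libraries of a time lie close together in every region, as for the second narrowed region with 3886 and 3241 bp at 6 h, against 14736 and 14629 bp at 0 h.

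Counted over single bases, 7.43 Mb were covered in both 0 h libraries and in neither 6 h library, and 4.26 Mb were covered in both 6 h libraries and in neither 0 h library. The bases kept in all 4 libraries amounted to 45.5 Mb. Most of the change lay inside shared regions, which held 72.6% of the vacated and 67.0% of the newly covered bases. At 1 h, RNAPII covered 49.5% of the bases vacated at 6 h, 59.5% of those newly covered and 88.8% of those kept.

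From 0 h replicate 2 to 6 h replicate 1, changes of 2-fold were rarer in RNAPII height than in width. In that step 940 summits rose and 579 fell by as much, against 1620 and 2060 covered lengths. The summit of a region is given as the fragments at its highest point over the background of its library, which takes out depth to first order. Of the 42245 shared regions with a recovered summit in all 4 libraries, 845 (2%) had a summit at least 2-fold higher and 374 (0.885%) at least 2-fold lower at 6 h, with both 6 h libraries beyond both 0 h libraries. Between libraries of 1 time, summit changes of 2-fold were nearly absent, with 8 higher and 8 lower between the 6 h libraries and 1 of each between the 0 h libraries. Covered lengths changed by as much more often there. Between the 6 h libraries 417 grew and 799 shrank, and between the 0 h libraries 312 grew and 692 shrank. Width was thus the less steady measure between libraries of a time. The median summit was higher by 0.096 on the log2 scale at 6 h. Between libraries of 1 time it was also higher in the shallower one, by 0.041 (6 h) and 0.045 (0 h). Those steps of depth were 0.809 and 0.837. The part of depth in the median change was not tested. Centring on the median change, chosen after seeing the data, gave 610 higher and 560 lower regions.

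Most regions with a higher summit had widened and most with a lower one had narrowed. Width and summit come from the same pileup and cutoff, so they are not independent measures and part of this is built in. Of the 845, 77.6% had widened and 1.42% had narrowed, and of the 374, 92.5% had narrowed and 1.07% had widened. Their median summit was 11.8 and 11.9 times the background at 6 h, against 4.83 and 4.89 at 0 h, in the higher group. In the lower group it was 5.33 and 5.26 at 6 h, against 12.6 and 12.5 at 0 h. Over the 42245 shared regions, which are not independent replicates, the log2 changes of width and summit had a Pearson r of 0.574. Fragments at the same position were counted once, so the pileup has a ceiling. The highest summits held 384 and 384 fragments at 6 h, against 374 and 372 at 0 h. In multiples of the background they stood at 55.3 and 68.4 at 6 h, against 39.2 and 46.6 at 0 h. A fold change next to this ceiling thus depends on the background of each library and is not a measure of RNAPII alone.

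**Figure D4:**
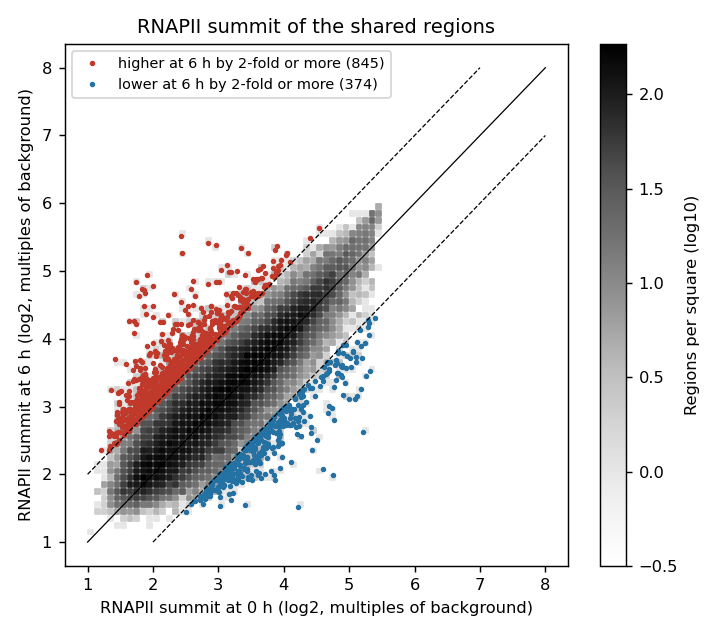
RNAPII summit of the 42245 shared regions at 6 h (vertical axis) against 0 h (horizontal axis), both as log2 of multiples of the background and as the mean of 2 libraries; grey squares give the number of regions, the solid line equality and the dashed lines a 2-fold change. The 845 regions with a higher summit had medians of 4.83 and 4.89 times the background at 0 h and the 374 with a lower one had 12.6 and 12.5, against 8.29 and 8.40 for all shared regions.

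The regions named for their summit were chosen after their values were seen, by the largest change. On chromosome 4, at 62367572 to 62369698, the summit was 27.8 and 29.4 times the background at 6 h, against 2.94 and 3.76 at 0 h. H3K9ac covered all 2127 bp of it in both 6 h libraries, against 430 and 647 bp at 0 h, while H3K4me3 was alike, with 1532 and 1505 bp at 6 h, against 1517 and 1502 bp at 0 h. On chromosome 5, at 19415726 to 19420585, the summit was 43.8 and 48.3 at 6 h, against 5.77 and 5.01 at 0 h, and H3K4me3 covered 3619 and 3654 bp at 6 h with no peak in either 0 h library. On chromosome 1, at 1475196 to 1476271, the change came late, with summits of 3.46 and 3.63 in the 0 h, 4.23 and 3.69 in the 1 h, and 24.8 and 28.3 in the 6 h libraries.

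On chromosome 3, at 10056510 to 10057243, the summit was 4.04 and 3.92 at 6 h, against 25.6 and 28.5 at 0 h, and H3K18ac covered all 734 bp in both libraries of both times. On chromosome 7, at 61713186 to 61717740, it was 4.04 and 4.45 at 6 h, against 23.4 and 24.9 at 0 h, with 4 peaks in each 6 h library in place of 1 in each 0 h library. On chromosome 1, at 89443390 to 89446965, it was 5.04 and 6.41 at 6 h, against 22.0 and 23.6 at 0 h, and H3K9ac covered 503 and 676 bp at 6 h, against 2728 and 2867 bp at 0 h. H3K4me3 in that region covered 2574 and 2761 bp at 6 h, against 2745 and 2764 bp at 0 h.

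A region was lost where both 0 h libraries and neither 6 h library had a peak in it, which held for 4579 regions (6.04% of 75863). It had appeared in the reverse case, which held for 2965 regions (3.91%). The remaining 26069 regions had a peak in other combinations of the lists. Both classes were short and weak. Lost regions had a median length of 437 bp and appeared regions of 475 bp, against 1037 bp for shared ones. Their median summit was 3.46 and 3.51 times the background at 0 h for the lost, and 3.75 and 3.92 times at 6 h for the appeared, while shared regions had 8.79 and 8.91 at 6 h and 8.29 and 8.40 at 0 h. A peak that is weak in the deeper libraries can miss the cutoff in the shallower ones. With the 0 h summits scaled down to the depth of the 6 h libraries, 2537 of the lost regions (55.4%) would still have passed, against 95.8% of the shared ones. No such scaling touches the appeared regions, which were called in the shallower libraries.

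Both counts depend on how many lists must agree, and they are higher wherever a library is left out. The lost regions were 7063 without 6 h replicate 1, 10179 without 0 h replicate 1 and 10580 without 0 h replicate 2. The appeared regions were 7802 without 6 h replicate 1, 8369 without 6 h replicate 2 and 4479 without 0 h replicate 1. With fixed 500 bp windows in place of merged regions, 15842 windows were lost and 10553 appeared.

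The strongest lost regions were compact peaks, each a single peak in both 0 h libraries. On chromosome 5, at 67173782 to 67174795, the summit was 20.7 and 22.1 times the background at 0 h, and at 1 h a peak of 3.41 and 3.69 times remained. On chromosome 4, at 64440375 to 64441048, it was 21.1 and 24.4 at 0 h with no peak at 1 h. On chromosome 10, at 62725395 to 62726068, it was 14.3 and 16.8 at 0 h, and on chromosome 6, at 1213362 to 1214401, 13.01 and 13.3. A pair lay close together on chromosome 8, at 57892949 to 57893518 with 12.9 and 13.4 and at 57887516 to 57888222 with 12.1 and 11.4. Of these 6, 4 had no peak in either 1 h library. All 6 kept H3K18ac peaks in both libraries at 6 h as at 0 h. H3K9ac was found at 0 h in the one on chromosome 6 only, over all 1040 bp in both libraries, and in none of the 6 at 6 h.

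The strongest appeared regions were longer, and all 6 were covered in both 1 h libraries. On chromosome 5, at 42554881 to 42560803, RNAPII covered 5755 bp in each 6 h library with summits of 44.0 and 47.2 times the background, and no 0 h peak was called in the 5923 bp. None of the 4 marks had a peak there at 0 h. At 6 h H3K4me3 covered 4962 and 5183 bp, H3K9ac 1139 and 1159 bp, H3K18ac 921 and 1086 bp and H3K27ac 632 and 838 bp. On chromosome 1, at 11317782 to 11320705, the summit was 26.2 and 26.6 at 6 h, and H3K4me3 covered 1828 and 2083 bp at 6 h and none at 0 h. H3K18ac was there before heat, over 2661 and 2228 bp at 6 h, against 1823 and 2256 bp at 0 h.

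On chromosome 5, at 8588578 to 8590850, the summit reached 33.3 and 33.0 at 6 h, with H3K4me3 over 1187 and 1275 bp and H3K9ac over 515 and 410 bp, and no peak of H3K18ac or H3K27ac at either time. On chromosome 2, at 33688517 to 33690299, and on chromosome 5, at 10554736 to 10557726, H3K4me3 was the only mark called at 6 h, over 1389 and 1381 bp and over 1579 and 2048 bp. Their RNAPII summits were 23.1 and 26.7, and 20.6 and 21.03. On chromosome 1, at 25899030 to 25900359, the summit was 24.2 and 21.9, and H3K18ac and H3K27ac were present at both times. H3K4me3 covered only 158 and 139 bp of its 1330 bp at 6 h, where the shortest peaks of those lists were 139 and 130 bp. H3K4me3 was thus present in both 6 h lists in 6 of the 6 strongest appeared regions and in 0 of 6 at 0 h.

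This gain of H3K4me3 was not shared by the bulk of the appeared regions. Over all 2965, 28.1% had H3K4me3 in both 6 h libraries and 26.3% in both 0 h libraries. It was seen in the 322 appeared regions over 1000 bp, of which 37.6% had H3K4me3 at 6 h and 23.3% at 0 h, with H3K9ac in 27.3% at 6 h and 16.8% at 0 h. In those of 200 to 500 bp the share with H3K4me3 was 26.4% at 6 h and 26.6% at 0 h.

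The 4 marks come from other libraries than those that set the classes, 2 for each mark and time. Their lists covered 50.5 and 53.5 Mb at 6 h, against 73.2 and 68.3 Mb at 0 h, for H3K9ac, and 94.8 and 86.3 Mb at 6 h, against 79.4 and 75.9 Mb at 0 h, for H3K27ac. For H3K4me3 they covered 42.8 and 49.3 Mb at 6 h, against 43.6 and 50.02 Mb at 0 h, and for H3K18ac 129 and 125 Mb at 6 h, against 137 and 137 Mb at 0 h. The H3K9ac libraries were shallower at 6 h, with a background of 5.15 and 6.49 fragments at 6 h, against 7.40 and 7.38 at 0 h. The log2 change in H3K9ac covered length was -0.44, and -0.35 with the slope on depth between the 6 h libraries taken off. The H3K4me3 libraries were also shallower at 6 h, at a ratio of 0.85. Their log2 change in covered length was -0.024, and 0.038 with the same kind of slope taken off. Depth could not be recovered for replicate 1 of H3K18ac at 6 h and of H3K27ac at 6 h and 0 h. The part of depth in the changes of H3K18ac and H3K27ac is not known. Mark shares in a class are therefore read beside those in shared regions.

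Most lost regions carried H3K18ac at both times and few carried H3K4me3. Over all lengths, each of the 4 marks was less frequent in them than in shared regions, which are longer. H3K18ac was found in 74.3% and 73.4% of lost regions in the 6 h libraries, against 76.4% and 75.6% in the 0 h libraries. In shared regions it was found in 90.1% and 89.3% at 6 h, against 94.1% and 93.6% at 0 h. H3K4me3 was found in 18.7% and 21.7% at 6 h, against 20.8% and 23.3% at 0 h, while 49.6% and 51.6% of shared regions had it at 6 h, and 51.2% and 53.0% at 0 h. H3K9ac was found in 30.3% and 31.5% of lost regions at 6 h, against 52.4% and 48.6% at 0 h. In shared regions it was found in 70.0% and 71.5% at 6 h, against 83.8% and 81.1% at 0 h. H3K27ac was more frequent at 6 h in lost regions, at 59.0% and 52.5%, against 47.3% and 44.0% at 0 h, as it was in shared regions, at 83.9% and 80.2%, against 75.1% and 73.5%.

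H3K9ac was absent at 6 h from a larger share of its 0 h carriers among lost than among shared regions, also at like length; the difference was not tested. Of the 2027 lost regions with H3K9ac in both 0 h libraries, 555 (27.4%) had it in neither 6 h library, against 9.19% of such shared regions. In the band of 200 to 500 bp these shares were 29.3% for lost and 18.4% for shared regions. The lost regions that would have passed at the depth of the 6 h libraries had H3K9ac in 24.9% at 6 h and 48.6% at 0 h, close to all lost regions with 24.0% at 6 h and 44.3% at 0 h. For H3K18ac, the share of 0 h carriers with the mark in neither 6 h library was 2.88% in lost and 3.28% in shared regions. For H3K4me3 it was 7.23% in lost and 1.78% in shared regions, and for H3K27ac 1.93% and 0.28%. A larger share in lost regions was thus not particular to H3K9ac.

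**Figure D5:**
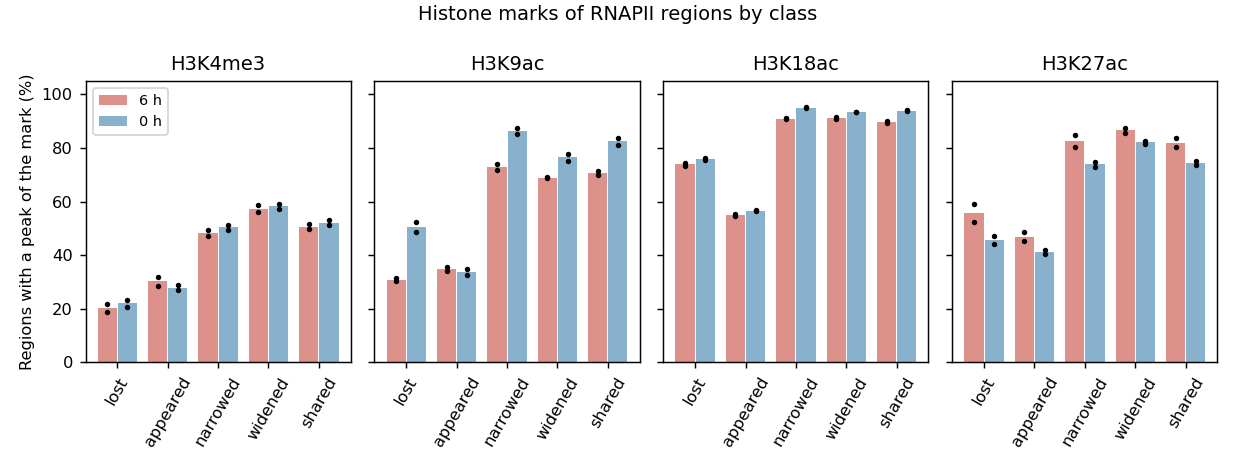
Share of regions with a peak of each mark in percent (vertical axis) for lost, appeared, narrowed, widened and all shared regions (horizontal axis) at 6 h (left bars) and 0 h (right bars); bars are means and dots the 2 libraries of the mark. H3K9ac in lost regions stands at 30.3% and 31.5% at 6 h, against 52.4% and 48.6% at 0 h, and in appeared regions at 34.0% and 35.4% at 6 h, against 34.9% and 32.5% at 0 h.

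In appeared regions the share with H3K9ac was alike at both times, with 34.0% and 35.4% at 6 h, against 34.9% and 32.5% at 0 h. Of the 872 appeared regions with H3K9ac in both 0 h libraries, 89 (10.2%) had it in neither 6 h library, and 130 of those with none at 0 h had it in both 6 h libraries. The difference from lost regions was not tested. Over the same comparison the covered bp of H3K9ac changed by 0.17 on the log2 scale in appeared regions, by -0.94 in lost regions and by -0.44 in shared regions. For H3K4me3 these changes were 0.24 in appeared, -0.17 in lost and -0.12 in shared regions. Appeared regions were also the class with fewest marks, since 33.9% had none of the 4 marks in any 6 h list and 34.5% none in any 0 h list. Among lost regions these shares were 19.98% at 6 h and 18.6% at 0 h, and among shared regions 5.11% at 6 h and 2.72% at 0 h.

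Within shared regions, losses of H3K9ac were most frequent where RNAPII narrowed or its summit was lower. Over all shared regions, 48% had fewer bp of H3K9ac in both 6 h libraries than in either 0 h library and 6.91% had more. In narrowed regions these shares were 61.6% and 3.22%, and in widened regions 32.4% and 13.1%. In the 374 regions with a lower summit they were 74.3% and 1.87%, and in the 845 with a higher summit 18.8% and 30.4%, so gains of H3K9ac outnumbered losses in the group with a higher summit. The part of the smaller depth of the H3K9ac libraries at 6 h in these differences between classes was not tested. The classes also differed before heat, with H3K9ac in both 0 h libraries of 83.3% of narrowed and 72.9% of widened regions. It was in 86.1% of those with a lower and 79.4% of those with a higher summit.

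By counts of regions, the other marks followed RNAPII less closely. The part of the depth of the mark libraries in these counts was not tested. H3K27ac had more bp at 6 h in 57.2% of all shared regions and fewer in 2.2%. It had more in 58.9% of narrowed, 57.1% of widened, 60.2% of summit-higher and 53.2% of summit-lower regions. H3K18ac had fewer bp at 6 h in 42.4% of shared regions and more in 10.7%, with fewer in 46.3% of narrowed and 35.3% of widened regions. H3K4me3 had fewer bp in 23.6% of shared regions and more in 4.16%, and in the regions with a higher summit it had fewer in 27.6% and more in 10.3%. Its total bp nevertheless rose in the regions with a higher summit, by 0.18 on the log2 scale. In those with a lower summit it changed by -0.26, and in all shared regions by -0.12. Before heat, H3K4me3 was found in both libraries of 68.9% of the regions with a higher summit, against 50.8% of all shared regions.

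The combination of H3K9ac and H3K18ac without H3K4me3 was found in 11.2% of lost regions at 6 h and in 26.4% at 0 h, and in 15.6% of shared regions at 6 h and 26.8% at 0 h. In appeared regions it was found in 5.87% at 6 h and 8.74% at 0 h. All 4 marks together were found in 20.03% of appeared regions at 6 h and 15.3% at 0 h, in 10.2% of lost regions at 6 h and 13.2% at 0 h, and in 45.7% of shared regions at 6 h and 46.8% at 0 h.

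Of the marks, H3K9ac differed most between times on the vacated bases. H3K9ac covered 32.0% of them at 6 h, against 50.7% at 0 h, while it covered 27.9% of the newly covered bases at 6 h, against 29.4% at 0 h. Of the bases kept by RNAPII, H3K9ac covered 44.9% at 6 h, against 59.7% at 0 h. H3K27ac covered more at 6 h in all 3 kinds of bases, with 49.2% of the vacated, 44.2% of the newly covered and 58.2% of the kept bases, against 38.5%, 37.3% and 44.4% at 0 h.

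Shifts of the RNAPII edges were measured on the side of H3K4me3 and on the far side, with the mark as an unchecked guide to the start of a gene. Of the shared regions, 18054 held exactly 1 stretch of H3K4me3 common to both 0 h libraries, and in 16638 its centre lay at least 200 bp from the RNAPII centre. These 16638 regions were not split into narrowed, widened and other ones. A median over them cannot say from which side the narrowed regions narrowed, and this was not tested. The median edge shifts were of the order of those between libraries of a time. From 0 h replicate 2 to 6 h replicate 1, the median shift was 10 bp outward on the H3K4me3 side and 3 bp inward (-3 bp) on the far side. Between the 6 h libraries it was -8 bp on both sides, and between the 0 h libraries -11 bp on the H3K4me3 side and -9 bp on the far side. Averaged over the 4 pairs of a 6 h and a 0 h library, the medians were 0.75 bp on the H3K4me3 side and -10 bp on the far side, and the first of these turned to -3 bp without 6 h replicate 1 and to -4.5 bp without 0 h replicate 2. For the 1 h libraries against 0 h replicate 2, both edges lay outward, by 211 and 197 bp on the H3K4me3 side and by 236 and 227 bp on the far side.

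Shifts of at least 200 bp, outward and inward and on both sides, were more frequent in the pair across time than in the pairs of 1 time. Outward shifts on the H3K4me3 side were seen in 11.9% of the oriented regions from 0 h replicate 2 to 6 h replicate 1, against 5.66% between the 6 h libraries and 4.42% between the 0 h libraries. Inward shifts on that side were seen in 9.89%, against 8.55% and 7.6%. On the far side, outward shifts were seen in 9.16%, against 5.28% and 5.17%, and inward shifts in 10.6%, against 8.47% and 7.1%.

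Chromosomes were divided into 807 bins of 1 Mb, and the 403 bins with the least H3K4me3 at 0 h held 17.3% of the appeared regions, 5.39% of the lost and 5.96% of the shared regions. Most regions of each class thus lay in the other bins, and the difference in shares was not tested. The median distance to the nearest end of the mapped chromosome was 8.52 Mb for appeared, 5.94 Mb for lost and 5.43 Mb for shared regions. Regions with a higher summit had 12.8% in these bins and those with a lower one 4.55%. Of the appeared regions 17.3% lay over 10 kb from any shared region, against 6.66% of the lost ones, and 45.0% of the appeared and 48.9% of the lost regions lay within 1 kb of one. Another region of the same class lay within 5 kb for 32.6% of the lost and 27.6% of the appeared regions. Per chromosome, the share of lost regions was between 4.9% and 6.91% and that of appeared regions between 3.24% and 4.83%, so neither was confined to a few chromosomes.

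The 1 h libraries are given beside those at 6 h, with which they share the 0 h libraries. Of the lost regions, 46.9% had a peak in both 1 h libraries and 39.5% in neither. Of the appeared regions, 59.9% had a peak in both 1 h libraries and 31.9% in neither. The same shares were 95.6% and 2.64% for shared regions, and 49.5% and 39.9% for the regions in other combinations of the lists, which the lost regions resembled. In regions with a higher summit at 6 h, the median summit was 4.83 and 4.89 times the background in the 0 h, 9.55 and 9.51 in the 1 h, and 11.8 and 11.9 in the 6 h libraries. In regions with a lower summit it was 12.6 and 12.5 in the 0 h, 6.82 and 6.81 in the 1 h, and 5.33 and 5.26 in the 6 h libraries. The 1 h medians leave out regions with no recovered 1 h summit, and 739 of the 845 and 339 of the 374 regions had one in both 1 h libraries. Over all shared regions the medians were 8.29 and 8.40 in the 0 h, 11.3 and 11.5 in the 1 h, and 8.79 and 8.91 in the 6 h libraries. The covered length of the narrowed regions was 30.8 and 30.2 Mb in the 0 h, 25.3 and 25.1 Mb in the 1 h, and 23.0 and 22.2 Mb in the 6 h libraries. For the widened regions it was 11.4 and 11.1 Mb in the 0 h, 12.6 and 12.5 Mb in the 1 h, and 15.2 and 14.9 Mb in the 6 h libraries. These 1 h lengths count only bases inside regions bounded by the 6 h and 0 h lists, so their middle place is partly built in. Over all shared regions they were 58.9 and 58.7 Mb at 1 h, against 63.4 and 61.5 Mb at 0 h. The whole 1 h lists covered 88.6 and 87.7 Mb.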

How the data were processed

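The authors trimmed reads with Trimmomatic 0.38, mapped them with Bowtie2 2.3.5 to the M82 assembly, version 1, filtered them on mapping quality and removed duplicates with SAMtools 1.9, and called narrow peaks in each library against 1 input with MACS2 2.2.7.1. The deposited lists give a fold, the ratio of pileup to local background at the summit, and p- and q-values as −log10, and reach q-values over 0.05, so peaks with q of at most 0.05 on the 12 chromosomes were used. The methods and the reporting summary of the study name different cutoffs.

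From fold and p-value, the whole number of fragments at each summit and the background were recovered for at least 99.98% of the peaks of each RNAPII list, to within 0.001 of the −log10 p-value. Peaks of 4 libraries were merged into regions, and an overlap of 1 bp counted as presence. A mark was present where both of its lists overlapped, unless libraries are given singly. Regions named in the text are the 6 lost and 6 appeared with the highest lower fold of their 2 libraries and the 6 narrowed and 6 widened with the largest change in mean covered bp. Summit regions were named after their values were seen. Members, classes and lists were chosen with earlier results of these data known. Alternatives were the q cutoff, equal peak numbers, joined peaks, region definitions, leaving out each library, the replicate block and depth. The scripts were tested on simulated data and ran in Python 3.11.15 with pandas 2.3.3, NumPy 2.4.6 and SciPy 1.17.1, and figures were drawn with Matplotlib 3.10.9. H3K27me1 lists and the input were not analysed here.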

Additional observations from a re-analysis of the deposited data

Results flagged for a closer look

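Covered length and median peak width of RNAPII went opposite ways after 1 h and after 6 h of heat. Against the same 0 h libraries, the log2 change in covered length was 0.37 (1 h) and -0.12 (6 h), and that in median peak width was 0.39 (1 h) and -0.085 (6 h). Both 1 h libraries lay above both 0 h libraries and both 6 h libraries below them in each measure. The 6 h libraries were also shallower than the 0 h libraries, at a ratio of 0.716, and at equal depth -0.017 was left of the 6 h change in covered length and -0.014 of that in median width. The difference between the times was not tested, and both comparisons share the 0 h libraries.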

How the results depend on the processing

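The choices about depth, centring and summits were added after seeing the data. Of 219 alternative values, 128 stayed within the spread between libraries or within 1.5 times the count. At equal depth the log2 changes were -0.017 (covered length) and -0.014 (median width), and 2537 lost regions passed. The peak number change was 0.028 at q of at most 0.01, 0.057 with all deposited peaks and 0 with equal peak numbers, where median width changed by -0.052. Windows of 500 bp gave 15842 lost and 10553 appeared, presence from 50% of a region 6891 lost, and a mean change of at least 20% 10204 narrowed. A summit change of 1.5-fold gave 4544 higher and 2190 lower. With a mark over at least 50% of the region, shares for H3K4me3, H3K9ac, H3K18ac and H3K27ac were 12.03%, 28.6%, 67.5% and 25.7% in lost (0 h), 20.4%, 19.1%, 40.0% and 30.6% in appeared (6 h) and 21.4%, 57.8%, 73.5% and 29.5% in narrowed regions (0 h). In regions of 200 to 500 bp they were 16.6% (H3K4me3), 79.8% (H3K18ac) and 36.1% (H3K27ac) in lost, 32.3% (H3K9ac) in appeared, and 21.6%, 57.4%, 83.0% and 32.5% in narrowed regions.

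Leaving out each library gave 6217 to 10580 lost, 3963 to 8369 appeared, 20263 to 22661 narrowed and 12730 to 14750 widened regions, 3605 to 4695 with more and 1398 to 2064 with fewer peaks, and 896 to 1089 with a higher and 407 to 527 with a lower summit. Covered length changed by -0.16 to -0.089, median width by -0.11 to -0.062 and peak number by 0.038 to 0.048. The edge shift was -4.5 to 6 bp on the H3K4me3 side, with -3 bp without 6 h replicate 1 and -4.5 bp without 0 h replicate 2, and -14 to -6 bp on the far side. In lost regions H3K4me3 was 17.99% to 20.6%, H3K9ac 37.6% to 46.6%, H3K18ac 66.9% to 76.5% and H3K27ac 33.9% to 40.1%. In appeared regions they were 23.1% to 28.0%, 24.1% to 33.1%, 48.8% to 57.1% and 37.9% to 46.5%, and in narrowed regions 46.2% to 47.5%, 80.2% to 81.6%, 92.2% to 92.5% and 66.4% to 67.9%. The share of appeared regions in H3K4me3-poor bins was 14.0% to 15.5%. Apart from fewer lists having to agree, the causes were not tested.

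The replicate numbers did not pair the samples, since deviations of same-numbered libraries had a correlation of -0.0036 for covered length and 0.0074 for summits. With the replicate block, covered length changed by -0.12, 18275 regions narrowed, 10873 widened, 2981 had more and 1074 fewer peaks, and lost, appeared and summit counts were those reported. Of the 24 regions named by rule, 24 kept their class at q of at most 0.01, with equal peak numbers and without each library, and 23 with all peaks as deposited.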
